A study of Mus musculus with 8 samples.

Results

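A set of 10 tubulin genes was followed across the 16 mouse cortices of an Agilent 2-colour array study: the beta-tubulins Tubb6, Tubb2a, Tubb2b, Tubb3, Tubb4a and Tubb5, and the alpha-tubulins Tuba1a, Tuba1b, Tuba1c and Tuba4a. Their probes were found by matching the RefSeq accession of each probe to a gene symbol, which gave 14 probes for the 10 genes, of 37344 probes and 16850 named genes tested in all. The set was selected on the cryolesion response of Tubb6, seen in earlier results of these data, to place it beside the other isotypes, so cryolesion values and counts of calls are given here as a description and support nothing. The study compared right fronto-parietal cortex of floxed mice and of mice deficient in microglia-derived Il6, a cytokine of the early injury response, each as uninjured controls or after a cryolesion, in which a small area of cortex is damaged by cold. Each of the 4 groups (floxed control, Il6-deficient control, floxed cryolesioned, Il6-deficient cryolesioned) held 4 animals, named as biological replicates. The Cre driver, the deleted part of Il6, the strain, the age and the time between lesion and dissection are not given in the sources used here. Each array carried RNA of 2 animals, 1 in Cy5 and 1 in Cy3, and the 8 arrays formed a loop of 4 sides with 2 dye-opposed arrays each: the control side, the lesion side, the floxed-lesion side (floxed cryolesioned against Il6-deficient control) and the deficient-lesion side (Il6-deficient cryolesioned against floxed control). No array set a cryolesioned animal against a control of its own genotype, so every cryolesion change was reached through the other genotype.

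Microtubules are hollow polymers of alpha- and beta-tubulin dimers, and mammals build them from several isotypes encoded by separate genes. Neurons are rich in microtubules: Tubb3 is the classical neuronal beta-tubulin, Tubb2a, Tubb2b and Tuba1a are prominent in developing and adult neurons, Tubb4a is abundant in myelinating oligodendrocytes and neurons, and Tuba4a is an alpha-tubulin of adult neurons. Tubb5 and Tuba1b are broadly made, whereas Tubb6 is known mainly from cells outside the nervous system and from regenerating muscle. The coding sequences of the isotypes are much alike, and probe sequences were not used here, so whether a probe also reads another isotype was not tested.

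All 14 probes were well above background in all 16 channels and 0 of their spots were saturated, so none was lost to the filter on dim probes. Over all probes, 59.2% to 65.9% were well above background in each channel, and the number of arrays limits the precision. The targeted gene Il6 could be detected after cryolesion in 3 of 4 floxed and 0 of 4 Il6-deficient animals, and in 0 of the 8 controls. The female transcript Xist was detected in 3 of 4 floxed and 1 of 4 Il6-deficient controls but in 0 of the 8 cryolesioned animals. Sex thus moved with the cryolesion and, among controls, in part with the genotype. Defining markers of neurons, astrocytes, microglia, oligodendrocytes, endothelial and mural cells and meningeal fibroblasts were well above background in all 16 animals.

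Tuba1a, Tuba1b and Tuba1c lie on chromosome 15 and serve as an illustration of the regulatory sequence next to the isotypes, because 1 probe of Tuba1c moved with Tubb6 while the probes of Tuba1a and Tuba1b did not. The 250 bases before each start site are given 5′ to 3′ on the gene's own strand, from RefSeq on GRCm38.p6, with matches to the searched motifs in capitals. The windows are chr15:98934391-98934640 (minus strand) for Tuba1b, chr15:98953502-98953751 (minus strand) for Tuba1a and chr15:99029641-99029890 (plus strand) for Tuba1c.
Tuba1b: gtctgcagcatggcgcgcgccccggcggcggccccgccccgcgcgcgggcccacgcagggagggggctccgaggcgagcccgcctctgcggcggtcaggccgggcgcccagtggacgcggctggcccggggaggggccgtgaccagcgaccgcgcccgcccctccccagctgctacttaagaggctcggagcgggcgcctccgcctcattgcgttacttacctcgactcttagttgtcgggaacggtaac
Tuba1a: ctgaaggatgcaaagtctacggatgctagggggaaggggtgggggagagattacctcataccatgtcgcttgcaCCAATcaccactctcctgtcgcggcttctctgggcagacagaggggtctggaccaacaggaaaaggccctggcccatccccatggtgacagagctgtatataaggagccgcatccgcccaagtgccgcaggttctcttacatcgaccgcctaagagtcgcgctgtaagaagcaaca
Tuba1c: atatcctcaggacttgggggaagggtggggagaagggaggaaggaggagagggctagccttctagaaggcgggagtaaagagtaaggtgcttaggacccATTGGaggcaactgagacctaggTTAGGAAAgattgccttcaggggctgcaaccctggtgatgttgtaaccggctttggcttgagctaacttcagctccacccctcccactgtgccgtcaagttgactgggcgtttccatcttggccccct
The motifs searched, on both strands, were AP-1 (TGANTCA), CRE (TGACGTCA), the STAT motif GAS (TTCNNNGAA), C/EBP (TTNNGNAA), CCAAT and TATAAA. They occur in 6.75%, 1.55%, 7.02%, 36.8%, 33.8% and 12.4% of the 32851 upstream windows of the same length. The Tuba1c window held 1 CCAAT match on the opposite strand (ATTGG) 151 bases before the start and 1 C/EBP match 128 bases before it. The Tuba1a window held 1 CCAAT match, 176 bases before the start, and the Tuba1b window held none of the 6. The table gave windows for 8 of the 10 genes, and Tubb6 and Tubb2b were not analysed here for motifs. In those 8, AP-1 and GAS matched in 0 and C/EBP in Tuba1c alone. The matches are letters in a window, not shown binding.

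Tubb6 was the tubulin with the largest cryolesion change. In floxed controls its log2 levels were 7.21, 7.18, 7.32 and 7.91 (animals 1 to 4), and in Il6-deficient controls 7.17, 7.06, 8.03 and 8.44. In floxed cryolesioned animals they were 12.69, 13.03, 10.85 and 12.32, and in Il6-deficient cryolesioned animals 11.71, 11.49, 10.83 and 11.68. All 8 cryolesioned animals lay above all 8 controls, and within each state the genotypes overlapped. The lowest cryolesioned animals were animal 3 of each genotype. The group means were 7.40 ± 0.34 (SD, n = 4) in floxed controls, 7.67 ± 0.67 in Il6-deficient controls, 11.43 ± 0.41 in Il6-deficient cryolesioned and 12.22 ± 0.96 in floxed cryolesioned animals. In that order, neither the control groups nor the cryolesioned groups differed from their neighbour beyond their spread. The fitted log2 change with cryolesion was 4.09 ± 0.32 (SE) in floxed animals, a 17.0-fold difference, and 4.18 ± 0.32 in Il6-deficient animals, an 18.2-fold difference. Among the 16850 named genes these were the sixth highest value in floxed and the fourth highest in Il6-deficient animals. Both values draw on all 8 arrays and are not independent. With sex as a covariate they were 4.32 and 4.41. In floxed animals the value was 3.86 without array 2 of the control side, with an SE of 0.32 in both fits. The sex term rested on how far that 1 array lay from the rest of the fit. An adjustment for sex was thus not separated from that array. In whole cortex, more cells of a type that makes Tubb6 and more Tubb6 RNA per cell cannot be told apart.

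**Figure D1:**
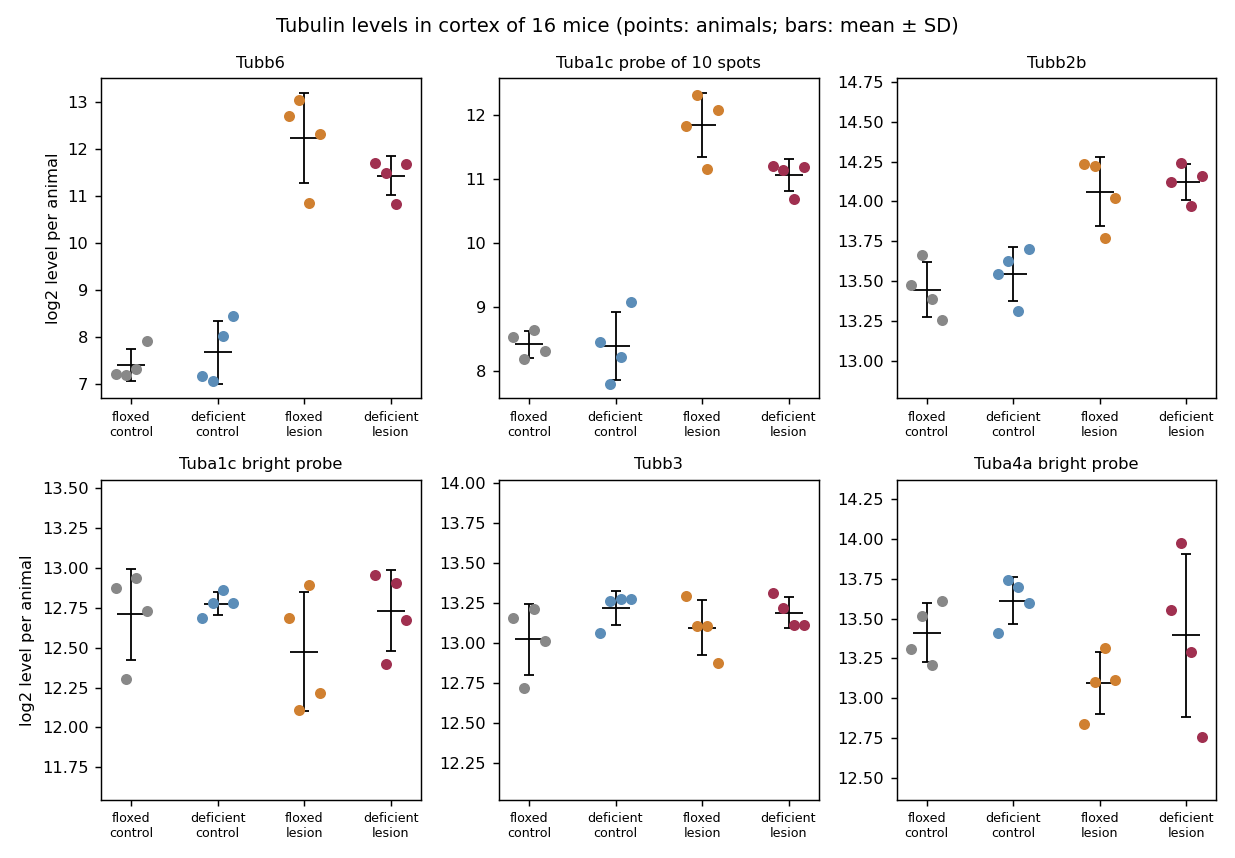
Log2 levels per animal (vertical axis) of Tubb6, Tubb2b, Tubb3, 2 probes of Tuba1c and 1 of Tuba4a in the 4 groups (horizontal axis). Each point is 1 animal and each bar the mean ± SD of 4. The 8 cryolesioned animals lie above the 8 controls for Tubb6, the Tuba1c probe of 10 spots and Tubb2b, and overlap with them for the others.

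Single arrays gave the same picture for Tubb6. On the floxed-lesion side, the log2 ratio of the cryolesioned over the control animal was 4.67 on array 1 and 4.59 on array 2. On the deficient-lesion side it was 3.51 and 3.77. The control side, with no lesion on either channel, gave red over green ratios of -0.04 and 0.12. The cryolesion sides thus lay far from the control side in both dye orientations. On the lesion side the Il6-deficient animal exceeded the floxed one by 0.86 on array 1 and was below it by 0.84 on array 2 (log2 ratio -0.84), so the arrays disagreed on the direction of the genotype. Where a control was hybridised beside a cryolesioned animal, Tubb6 levels were 7.92 ± 0.46 (SD, n = 4), and on the control side they were 7.16 ± 0.07. The difference in mean level between cryolesioned and control animals was 4.82 for floxed and 3.75 for Il6-deficient mice, beside the fitted changes of 4.09 and 4.18, which use ratios within arrays. The part of array sharing in the control levels was not tested.

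**Figure D2:**
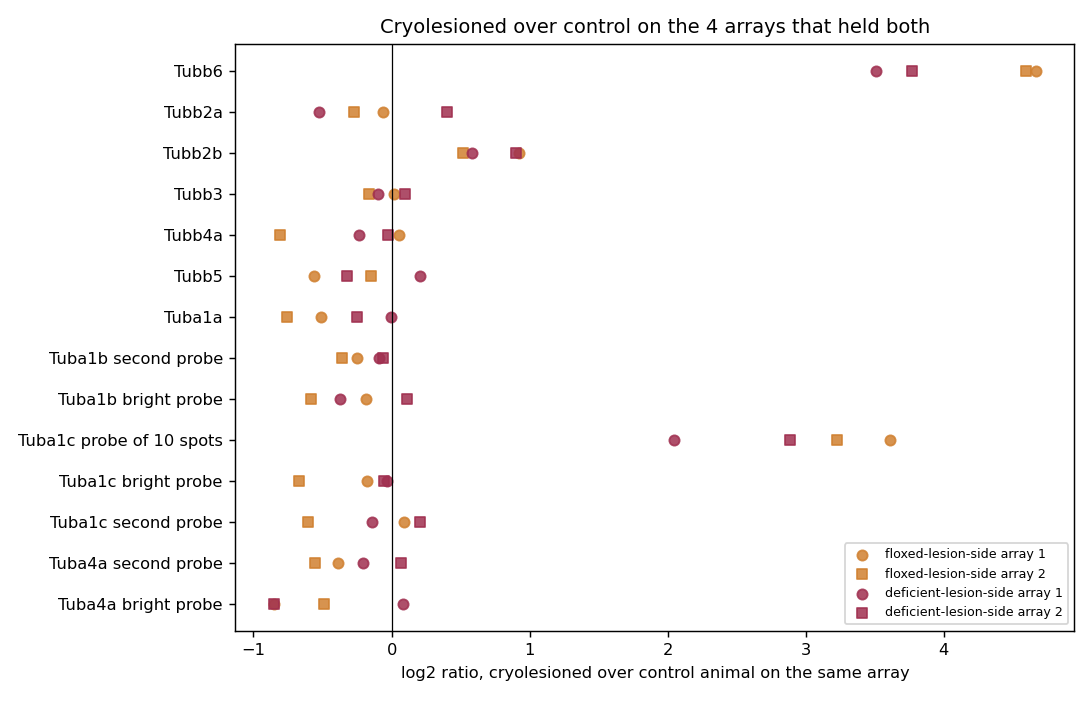
Log2 ratio of the cryolesioned over the control animal (horizontal axis) for each of the 14 tubulin probes (vertical axis) on the 4 arrays that held both. Orange marks the floxed-lesion side and red the deficient-lesion side, circles array 1 and squares array 2. Tubb6 lies between 3.51 and 4.67, the Tuba1c probe of 10 spots between 2.04 and 3.61, and Tubb2b between 0.52 and 0.92.

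Tuba1c, an alpha-tubulin made in many cell types, was read by 3 probes that did not move together. The probe printed as 10 spots on each array had log2 levels of 8.53, 8.19, 8.64 and 8.31 in floxed controls and 8.45, 7.80, 8.22 and 9.08 in Il6-deficient controls. Its levels were 11.83, 12.31, 11.15 and 12.08 in floxed cryolesioned and 11.20, 11.15, 10.68 and 11.19 in Il6-deficient cryolesioned animals. All cryolesioned animals lay above all controls, and animal 3 was again the lowest of each cryolesioned group. The fitted change was 3.05 ± 0.15 (SE) in floxed animals, 8.27-fold, and 2.83 ± 0.15 in Il6-deficient animals, 7.13-fold. The 9 or 10 spots used on an array spread with an SD of 0.06 to 0.14 around their mean log2 ratio. The other probes of Tuba1c, each of 1 spot and brighter, did not follow it. The brightest ranged from 12.30 to 12.93 in all 8 controls and from 12.11 to 12.95 in the 8 cryolesioned animals, with fitted changes of -0.22 ± 0.17 in floxed and -0.24 ± 0.17 in Il6-deficient animals. The second ranged from 12.03 to 12.53 and from 11.87 to 12.66, with changes of -0.07 ± 0.15 and -0.16 ± 0.15. By its brightest probe, which was used for the gene here, Tuba1c did not stand with Tubb6, and by its probe of 10 spots it did. The direction of Tuba1c as a gene thus depends on the probe and was not settled. Which transcripts each probe reads was not tested.

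**Figure D3:**
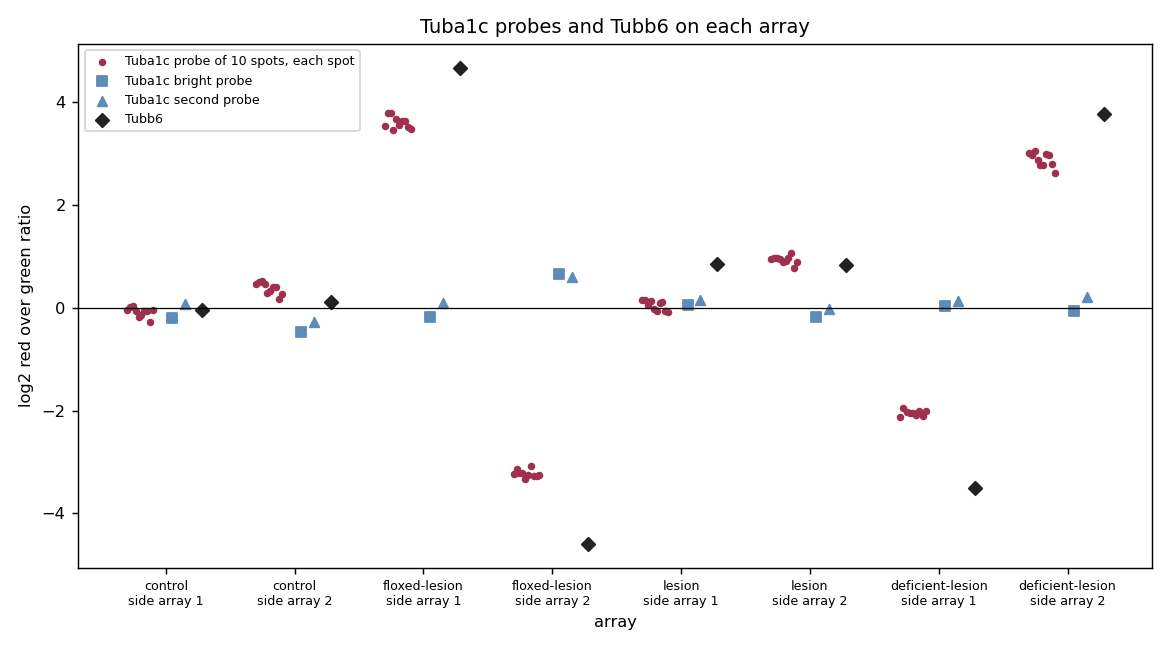
Log2 red over green ratio (vertical axis) of the 3 Tuba1c probes and Tubb6 on each of the 8 arrays (horizontal axis); each small red point is 1 spot of the repeated probe. The repeated spots keep together and swing with Tubb6 between the dye-opposed arrays of the mixed sides, from -3.23 to 3.61 in the mean, while both other Tuba1c probes stay between -0.48 and 0.67.

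With each gene read by its brightest probe, Tubb2b, a beta-tubulin of neurons and their precursors, was the other isotype that was higher after cryolesion. Its log2 levels were 13.48, 13.67, 13.39 and 13.26 in floxed controls and 13.54, 13.63, 13.31 and 13.70 in Il6-deficient controls. They were 14.23, 14.22, 13.77 and 14.02 in floxed cryolesioned and 14.12, 14.24, 13.97 and 14.16 in Il6-deficient cryolesioned animals. The cryolesioned animals again lay above all controls, by a far smaller step than for Tubb6. The fitted change was 0.59 ± 0.11 (SE) in floxed animals, 1.51-fold, and 0.87 ± 0.11 in Il6-deficient animals, 1.82-fold.

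The remaining isotypes had fitted cryolesion changes between -0.72 and -0.01, and the levels of control and cryolesioned animals overlapped for each of their probes in both genotypes. The lowest was the brighter Tuba4a probe in floxed animals, with levels of 13.31, 13.52, 13.21 and 13.61 in controls and 12.84, 13.11, 13.32 and 13.12 after cryolesion. Its fitted changes were -0.72 ± 0.16 (floxed) and -0.34 ± 0.16 (Il6-deficient). The second Tuba4a probe gave -0.35 ± 0.12 and -0.19 ± 0.12. Tubb3 lay between 12.72 and 13.28 in the controls and between 12.88 and 13.31 in the cryolesioned animals, and its fitted changes were -0.06 ± 0.17 (floxed) and -0.01 ± 0.17 (Il6-deficient). Tuba1a changed by -0.25 ± 0.22 and -0.51 ± 0.22, Tubb4a by -0.34 ± 0.13 and -0.17 ± 0.13, and Tubb5 by -0.30 ± 0.16 and -0.11 ± 0.16. Tubb2a (-0.16 ± 0.34 and -0.06 ± 0.34) and the brighter Tuba1b probe (-0.35 ± 0.23 and -0.17 ± 0.23) had wide errors. The negative sign of these small values is not firm: 8 of 10 genes were negative in floxed animals, against 4 of 10 when each array was centred on its median in place of loess and 6 of 10 with sex as a covariate. In Il6-deficient animals 8 of 10 were negative, against 7 of 10 and 4 of 10 under the same alternatives. Tubb6 and Tubb2b were positive under each of them.

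By limma with Benjamini-Hochberg adjustment over 29359 features, called under an adjusted p of 0.05, 2 of 10 members (Tubb6 and Tubb2b) were called in floxed animals, where 3.05% of all features were, and the same pair in Il6-deficient animals, where 2.74% were. With every probe tested separately, 3 of 14 tubulin probes were called in each genotype, against 2.81% and 2.34% of all probes. The levels of 4 cryolesioned and 4 control animals did not overlap for 2 of 10 genes in each genotype, against 14.8% and 17.3% of all features. Since these contrasts chose the members, nothing is read from the counts. Tubb2b lost its call in both genotypes without array 1 of the control side, array 1 of the floxed-lesion side, either array of the lesion side or array 2 of the deficient-lesion side, and in floxed animals also without array 2 of the floxed-lesion side, which left 1 called member. Its fitted change with an array left out was 0.52 to 0.66 in floxed and 0.79 to 0.93 in Il6-deficient animals.

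**Figure D4:**
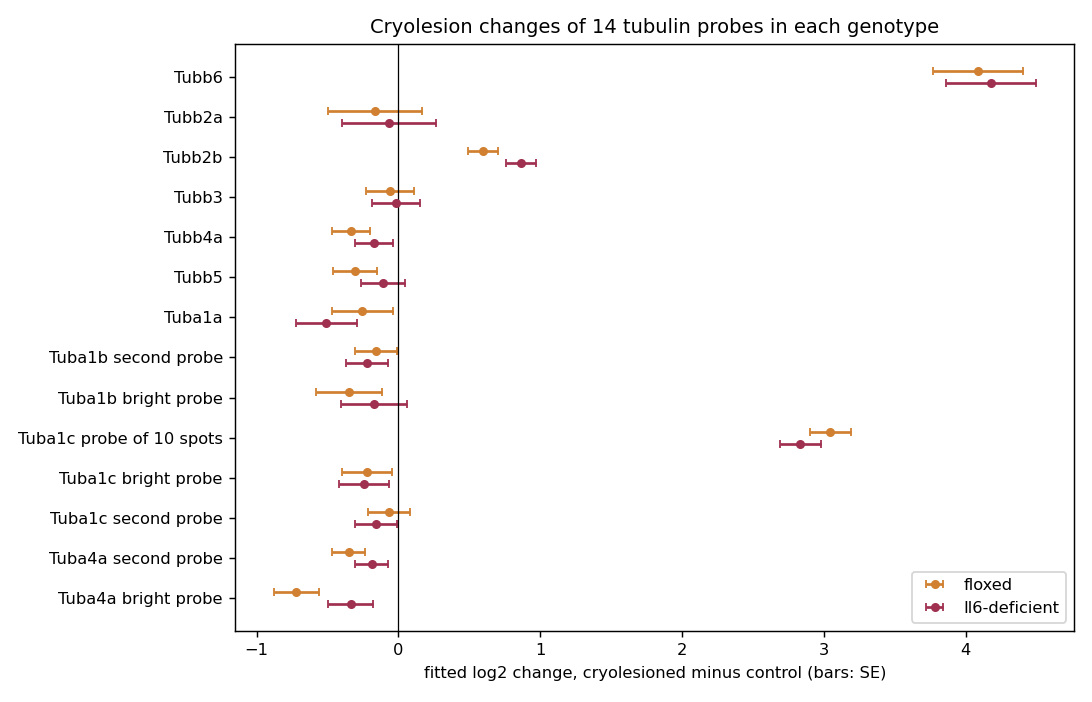
Fitted log2 change with cryolesion (horizontal axis) of each of the 14 tubulin probes (vertical axis) in floxed (orange) and Il6-deficient (red) animals; bars are SE. Tubb6 stands at 4.09 and 4.18, the Tuba1c probe of 10 spots at 3.05 and 2.83 and Tubb2b at 0.59 and 0.87, and the other 11 probes lie between -0.72 and -0.01.

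The profile of Tubb6 over the 16 animals was set against that of every other named gene by the root mean square difference of centred log2 levels. The genes most like it were Timp1, an inhibitor of matrix metalloproteinases (difference 0.36), the monocyte chemokine Ccl2 (0.42), the transglutaminase Tgm1 (0.46), the heme-degrading enzyme Hmox1 (0.52) and the leukocyte receptor Lilrb4a (0.53). Their fitted changes were 3.63 to 4.88 in floxed and 3.30 to 4.36 in Il6-deficient animals. Among single probes, the Tuba1c probe of 10 spots ranked 18 of 37344 in likeness to Tubb6 (0.72), whereas Tubb2b ranked 1110 (1.94) and the other 11 tubulin probes lay between 2.22 and 2.40. The genes most like Tubb3 were Cherp, the proteasome subunit Psmc1, the glycolytic phosphofructokinase Pfkp, the transketolase Tkt and Nsfl1c, with differences of 0.09 to 0.10, and their fitted changes lay between -0.18 and 0.17. All points share the 8 arrays, and likeness is a description with no test.

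Genotype was compared within each state, a contrast that the choice of members did not use. Among controls, 0 of 10 members were called by limma, as were 0% of all 29359 features, and 0 of 10 members had an unadjusted p under 0.05, against 4.43% of all features. The levels of the 4 and 4 control animals did not overlap for 0 of 10 genes, against 4.01% of all features. Sex moved in part with genotype here, with Xist detected in 3 of 4 floxed and 1 of 4 Il6-deficient controls. The median difference of the 10 members was 0.14, and 0.23 with sex as a covariate. The Il6-deficient minus floxed difference was -0.31 ± 0.28 (SE; 95% interval -0.97 to 0.35) for Tubb6 and 0.12 ± 0.15 (-0.23 to 0.47) for Tubb3. It was 0.43 ± 0.19 (-0.02 to 0.87) for Tuba1a, the highest of the 10. The Tuba1c probe of 10 spots differed by -0.30 ± 0.13 (unadjusted p = 0.0474, adjusted p = 0.988 in the limma fit over all probes). None of these differences passed the threshold, and the interval of Tubb6 allows a difference in either direction. The direction of Tubb6 also turned with the fit: its mean level was higher in Il6-deficient than in floxed controls by 0.27, and fits of the separate channels gave 0.14 and, with the replicate number as a block, 0.18.

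After cryolesion, 0 of 10 members were called for genotype, as were 0% of all features. Of the members, 9 of 10 had higher fitted values in Il6-deficient animals, with a median of 0.24 against 0.012 over all features, but 6 of 10 when arrays were centred on the median. In the same comparison the 10 neuron markers had a median of 0.39, with 6 positive and 4 negative values (lowest -0.32). In the limma fit 3 of 10 were higher at an unadjusted p under 0.05, and their median was 0.11 with median centring. The 6 blood cell markers had a median of -0.45, with 3 of 6 lower at an unadjusted p under 0.05. Medians of the other marker lists were 0.07 (astrocyte), -0.03 (microglia and macrophage), -0.17 (oligodendrocyte), 0.12 (endothelial and mural) and -0.15 (meningeal fibroblast). None of these markers was called, and their part in the tubulin values was not tested. Of the tubulins, 3 of 10 members had an unadjusted p under 0.05, where 8.61% of all features did. Tuba4a differed by 0.44 ± 0.14 (95% interval 0.11 to 0.77), Tubb5 by 0.36 ± 0.14 (0.04 to 0.68) and Tubb2b by 0.22 ± 0.09. The Tubb2b value was -0.025 with median centring, and its difference in mean level was 0.06. The limma adjusted p was 0.563 for Tuba4a, 0.575 for Tubb5 and 0.580 for Tubb2b. Tuba4a on its brighter probe was higher in the Il6-deficient animal on both lesion-side arrays, by log2 ratios of 0.23 and 0.86. The brighter Tuba1b probe had levels of 16.24, 16.03, 16.04 and 15.98 in floxed and 16.82, 16.56, 16.30 and 16.39 in Il6-deficient cryolesioned animals. Tuba1b was the 1 of 10 genes whose genotypes did not overlap after cryolesion, against 4.46% of all features. Its fitted difference was 0.45 ± 0.20 (95% interval -0.03 to 0.93), with a limma adjusted p of 0.594, and the second Tuba1b probe gave 0.15 ± 0.13.

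Tubb6 and the Tuba1c probe of 10 spots were the 2 of 14 probes with lower fitted values in Il6-deficient animals after cryolesion. The Tuba1c probe gave an Il6-deficient minus floxed log2 difference of -0.51 ± 0.13 (95% interval -0.81 to -0.22, unadjusted p = 0.00447, adjusted p = 0.599 in the limma fit over all probes), which did not pass the threshold. Its lesion-side arrays gave Il6-deficient over floxed ratios of 0.05 and -0.94. Tubb6 differed by -0.22 ± 0.28 (-0.88 to 0.44), and the difference in mean level was -0.80. The interaction, the cryolesion change in Il6-deficient minus that in floxed animals, was 0.09 ± 0.45 for Tubb6 (95% interval -0.98 to 1.17), -0.21 ± 0.21 for the Tuba1c probe (-0.70 to 0.27) and 0.27 ± 0.15 for Tubb2b (-0.08 to 0.62). The Tubb6 value was -0.034 with median centring, -0.82 in the separate-channel fit, -0.90 in that fit with the replicate block and -0.72 without array 1 of the lesion side, so its direction was not settled. For the interaction, 0 of 10 members and 0% of all features were called, and 0 of 10 members against 3.31% of all features had an unadjusted p under 0.05. The interval of Tubb6 covers a response that differs by about 1 log2 unit in either direction.

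**Figure D5:**
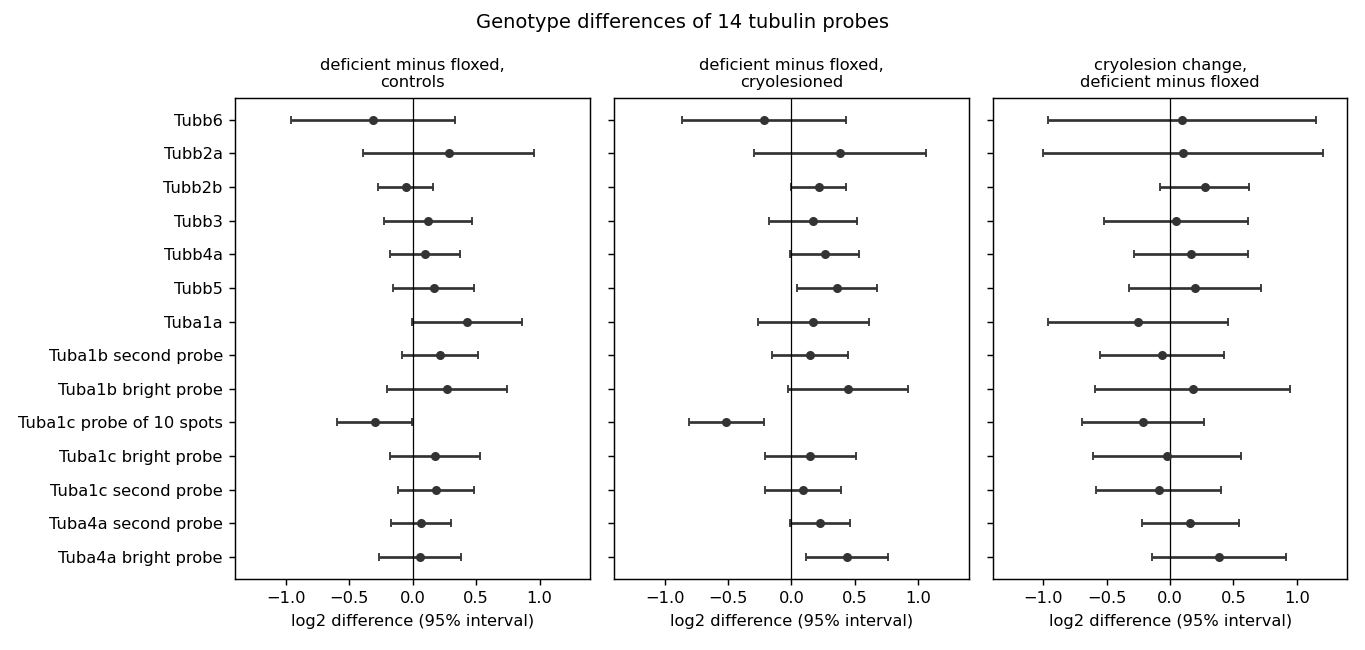
Fitted log2 differences (horizontal axis, with 95% intervals) of the 14 tubulin probes (vertical axis) between genotypes in controls, between genotypes after cryolesion, and for the interaction. After cryolesion, 12 of 14 probes lie above 0; Tubb6 at -0.22 and the Tuba1c probe of 10 spots at -0.51 lie below it.

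The genes around tubulin were followed in 8 lists, of other tubulins, folding cofactors, tubulin-modifying enzymes, nucleation, microtubule-associated, plus-end, stathmin and severing proteins, with 93 of 99 genes tested. In floxed animals 1 was called higher and 6 lower, 7 of 93 against 3.05% of all features (1.86% higher, 1.19% lower), with a median change of -0.14 against -0.010. In Il6-deficient animals 1 was called higher and 2 lower, against 2.74% (1.67% and 1.07%), with a median of -0.11 against -0.0085. Fignl1, an AAA ATPase related to the microtubule-severing protein fidgetin, rose from 6.96, 6.71, 6.76 and 7.07 to 7.87, 7.43, 7.79 and 7.95 in floxed animals and from 6.89, 6.58, 6.73 and 6.57 to 7.35, 7.79, 7.97 and 7.78 in Il6-deficient animals. Its changes were 1.08 ± 0.16 (limma adjusted p = 0.0208) and 0.89 ± 0.16 (limma adjusted p = 0.0397). Stmn1, stathmin, which binds tubulin dimers and promotes disassembly, fell from 15.70, 15.27, 15.91 and 15.96 to 14.67, 14.32, 15.26 and 14.85 in floxed animals, and from 15.80, 16.18, 16.21 and 16.16 to 15.37, 15.42, 15.24 and 15.11 in Il6-deficient animals. Its changes were -1.14 ± 0.17 (limma adjusted p = 0.0234) and -1.31 ± 0.17 (limma adjusted p = 0.0180). Control and cryolesioned animals did not overlap in either genotype for either gene, as for 14.8% (floxed) and 17.3% (Il6-deficient) of all features. Both genes were named because they were called. The lists were chosen with earlier results of these data known, so these p-values are a description and support nothing.

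The other called genes of these lists were lower, and each was called in 1 genotype. In floxed animals these were Ttl, the tubulin tyrosine ligase (-0.78 ± 0.10), Tppp, a tubulin-polymerising protein of oligodendrocytes (-0.74 ± 0.14), Tubg2, a gamma-tubulin (-0.65 ± 0.10), Map2, which marks dendrites (-0.59 ± 0.11), and Clasp2, a plus-end protein (-0.51 ± 0.09). In Il6-deficient animals it was Map7, which recruits kinesin (-0.62 ± 0.10). No gene of the lists was called for genotype or the interaction, so these genes were not shown to differ in response between genotypes. Microtubule-associated proteins were negative in 21 of 21 tested genes in floxed (median -0.35) and 19 of 21 in Il6-deficient animals (median -0.29), and in 18 and 21 with median centring or 17 and 15 with sex as a covariate. The sex term rested on control-side array 2, so the last counts do not separate sex from that array. Of all 29359 features, 15297 and 15243 were negative in the main fit. The genes share the same arrays and are not independent, so their sign count is a description. The number of called list genes in floxed animals was 0 without array 1 of the control or floxed-lesion side, or without array 2 of the lesion or deficient-lesion side. It was 3 without array 2 of the floxed-lesion side or array 1 of the deficient-lesion side, and 22 without control-side array 2. In Il6-deficient animals, leaving out arrays gave 0 for either array of the lesion side or array 2 of the deficient-lesion side, and 1 for either control-side array or array 1 of the floxed-lesion side.

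Markers of other cell types are given beside the tubulins, since some of them were called with cryolesion, against 3.05% of all features in floxed and 2.74% in Il6-deficient animals. Of 10 neuron markers, 1 (Camk2a) was called lower in floxed and 0 in Il6-deficient animals, with median changes of -0.52 and -0.42; the log2 of their summed level was 17.24 to 17.80 in floxed controls against 16.91 to 17.26 after cryolesion, and 17.64 to 17.95 against 17.01 to 17.79 in Il6-deficient animals. Of 8 microglia and macrophage markers, Cd68 and Ptprc were called higher in each genotype, but 4 of 8 had negative fitted values in each, with medians of -0.02 and 0.16. The lowest was the microglial receptor P2ry12, at -1.64 (floxed) and -1.30 (Il6-deficient), and 3 and 2 of the 8 were lower at an unadjusted p under 0.05. The log2 of the summed level of the 8 was 14.81 to 15.32 and 14.84 to 15.14 in floxed, and 15.07 to 15.36 and 14.93 to 15.27 in Il6-deficient animals, control and cryolesioned. Of 6 blood cell markers tested, 2 were called higher in each genotype (S100a8 and S100a9, granulocyte proteins), with summed levels of 14.32 to 15.50 and 15.25 to 15.78, and 15.17 to 15.55 and 14.74 to 15.90; the B-cell marker Ms4a1 was well above background in none of the 16 animals. Of 8 astrocyte markers, Gfap was called higher and Aldoc lower in each genotype, with summed levels of 16.85 to 17.33 and 16.53 to 16.93, and 16.80 to 17.17 and 16.72 to 17.28. Oligodendrocyte, endothelial and mural, and meningeal fibroblast markers had 0 of 8 called in each genotype, with median changes of -0.09, -0.000059 and -0.05 in floxed and -0.59, 0.47 and -0.16 in Il6-deficient animals. The summed oligodendrocyte level was 16.24 to 16.72 in the controls and 15.20 to 16.32 after cryolesion, the endothelial and mural one 13.11 to 13.49 and 13.19 to 13.80, and the meningeal one 15.03 to 15.90 and 13.85 to 15.82. Summed levels add linear intensities, so the brightest genes of a list weigh most and the sums do not measure cell numbers. The markers named were those called, so they were picked after their values were seen. The part of these cell types in the tubulin and microtubule values was not tested.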

How the data were processed

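Total RNA of 16 animals was measured on 8 arrays. Per the file headers, the authors' scanner output comes from Agilent Feature Extraction 10.7.3.1 and gives median spot and background intensity per channel, without normalization, processed intensities and a log10 ratio. The log2 ratios in the authors' deposited value table correlated at 0.967 to 0.978 with the ratios used here, with slopes of 1.12 to 1.25 and medians of -0.0045 to 0.0050; their exact scaling stays unknown. Background was corrected with normexp (offset 50) on median signals, followed by loess within arrays. Spots of a probe were averaged, probes well above background in at least 4 of 16 channels were kept, and a gene was read by its brightest probe. Ratios were fitted with limma 3.58.1 (R 4.3.3), with a dye intercept and 3 group coefficients (4 residual degrees of freedom), and adjusted by Benjamini-Hochberg over all features. Levels are log2 intensities after loess and Aquantile normalization. Genes were named through a RefSeq table of GRCm38.p6 (32994 of 56605 probes). All arrays came from 1 slide and 1 scan. The code was tested on simulated data. The members and lists were chosen with earlier results of these data known. Named were all members and their probes, every called gene of the microtubule lists, and the 5 genes most like Tubb6 and Tubb3. Alternatives were the offset, the centring, the scanner's processed signals, the authors' table, the filter, all probes, a separate-channel fit with and without the replicate number, sex as a covariate and each array left out.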

Additional observations from a re-analysis of the deposited data

Results flagged for a closer look

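Of 88 groups of 4 animals tested, over the 14 tubulin probes and 8 called genes of the microtubule lists, 6 had 1 animal far from the other 3 for the spread of its group; chance gives about 1 in 20 groups. The Tuba1c probe of 10 spots was at a log2 level of 10.68 in Il6-deficient cryolesioned animal 3, with the others at 11.15 to 11.20. Tubb3 was at 13.07 in Il6-deficient control animal 1, with the others at 13.26 to 13.28, and Stmn1 in the same animal was at 15.80, with the others at 16.16 to 16.21. Tubb4a was at 12.80 in Il6-deficient cryolesioned animal 1, with the others at 11.93 to 12.03, and at 12.82 in floxed cryolesioned animal 1, with the others at 12.01 to 12.11. Ttl was at 11.83 in Il6-deficient cryolesioned animal 2, with the others at 11.37 to 11.43.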

How the results depend on the processing

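The cryolesion contrasts chose the set, so their values under the 19 settings are a description: Tubb6 lay between 3.86 and 4.71 in floxed and 3.78 and 4.60 in Il6-deficient animals, and the Tuba1c probe of 10 spots between 2.93 and 3.37 and between 2.62 and 3.03. Tubb2b was past the threshold in 12 and 14 of the 19. The count of called members in floxed animals fell from 2 to 1 with processed signals and was 1 to 2 with each array left out, as in Il6-deficient animals. Reading Tuba1c by its probe of 10 spots, an alternative chosen after seeing the data, gave 3 in each genotype. Called genes of the microtubule lists in floxed animals were 7, and became 2 with median centring (1 higher, 1 lower), 1 with processed signals (higher), 4 with the authors' value table, 4 with sex as a covariate, 23 in the separate-channel fit and 0 to 22 with an array left out; in Il6-deficient animals 3 became 1, 10 in the separate-channel fit, 1 with sex as a covariate and 0 to 3 with an array left out. In Il6-deficient animals, sex as a covariate and leaving out control-side array 2 are not separate checks: each called 560 of 29359 features. Whether the replicate numbers pair the animals was not settled. Same-numbered animals of different arrays correlated at -0.24 to 0.53 (median 0.07) in their deviations, and other-numbered ones of different arrays at -0.40 to 0.31 (median -0.02). With the replicate number as a block in the separate-channel fit, 2 and 2 members and 22 and 11 genes of the lists were called. Over all features, 896 calls in floxed animals became 57 to 2140 with an array left out, 4766 in the separate-channel fit and 5125 with the block. No member was called for genotype or the interaction under any of the 20 settings. Some of those values turned sign: Tubb6 in controls was 0.14 in the separate-channel fit and 0.18 with the block; after cryolesion it was 0.047 without lesion-side array 2 (range -0.83 to 0.047); its interaction was -0.034 with median centring, -0.82 and -0.90 in the separate-channel fits and -0.72 without lesion-side array 1 (range -0.72 to 0.55). Tubb2b after cryolesion was -0.025 with median centring, and the interaction of the Tuba1c probe was 0.020 without control-side array 2 (range -0.46 to 0.020). Of 396 alternative cryolesion values, 27 moved by more than the spread between animals. The causes were not tested.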
